A study of Mus musculus with 40 samples.

Results

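Captan at 6000 ppm in the diet, the lower of its 2 doses in the series, was compared with control in mouse duodenum. The members are the 7 libraries labelled with that dose and the 5 labelled control, 12 of the 40 libraries of the series, and all 3045 probes of its count table. All came from wildtype male mice of the hybrid strain B6C3F1, and the duodenum is the first stretch of the small intestine. Exposure lasted 28 days for the captan libraries, and no exposure time is listed for the controls. For 2 further comparisons, 7 libraries of captan at 12000 ppm and 7 of folpet, a related fungicide, at 6000 ppm in the diet were used. RNA came from formalin-fixed, paraffin-embedded sections scraped whole from slides, so each library mixes epithelium, muscle, stroma, immune cells and any attached pancreas. The assay, TempO-Seq, joins neighbouring probe pairs on a transcript and counts the joined products by sequencing. Whether every library is a different mouse is not said in the labels. The p-values therefore measure only scatter among libraries, part of which may be technical. For the tests of single probes that scatter was fitted over all 40 libraries, including groups labelled CrVI 180 ppm and folpet 16000 ppm.

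Captan carries a trichloromethylthio group that reacts quickly with thiols such as glutathione and protein cysteines. Electrophiles of this kind modify KEAP1, which otherwise sends the transcription factor NRF2 to degradation. NRF2 then binds antioxidant response elements and drives enzymes that conjugate electrophiles, reduce quinones and restore glutathione and NADPH. Foreign compounds can also act through the nuclear receptor CAR, the product of Nr1i3, which drives Cyp2b and Cyp2c enzymes, esterases, conjugating enzymes and efflux pumps in liver and gut. In the small intestine many of these enzymes are made in villus enterocytes, the absorptive cells.

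Total counts ran from 1763440 (replicate 2) to 6216423 (replicate 7) in the captan group and from 2121824 (replicate 5) to 6220801 in control. Control replicate 5 also had the fewest probes above 0, 1460, against 1908 to 2322 in the other controls. Probes for 17 pancreatic acinar genes, which encode digestive enzymes of the neighbouring pancreas, took 16.0 ± 14.5% of counts in captan libraries and 45.4 ± 21.9% in control (mean ± SD, n = 7 and 5). By library the share was 2.28, 31.9, 26.6, 0.0111, 23.9, 27.3 and 0.00772% after captan, against 37.6, 35.7, 18.5, 62.3 and 72.7% in control. The groups overlapped, and the difference of -29.3 percentage points gave p = 0.0202 (2-sided exact permutation test over 792 assignments). Defining enterocyte genes were present in every library, with 63852 to 90392 CPM summed over the 9 tested enterocyte markers after captan and 21001 to 70786 CPM in control. CPM here are counts scaled for library size by the trimmed mean of M values (TMM).

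Enzymes that detoxify electrophiles and drugs were prominent among the genes higher after captan, while the smaller set of lower genes held some muscle, matrix and immune transcripts. Calls were made with edgeR's quasi-likelihood test at an adjusted p (Benjamini-Hochberg) under 0.05 over all 2541 tested probes. Of these, 131 were called (5.16%), 96 higher (3.78%) and 35 lower (1.38%), which is 94 and 33 genes. In 39 probes (1.53%) every captan library lay above every control, and in 12 (0.472%) every one lay below. The median log2 fold change over all tested probes was 0.01, and 498 (19.6%) had an unadjusted p under 0.05. The called rises had a median of 0.85, with 33 of 94 genes above 1, and the called falls a median of -1.23. Captan replicate 2 was the lowest captan library for 46 of the 94 risen genes and replicate 7 the highest for 39. Control replicate 5 was the lowest control for 65 of the 94 and the highest control for 18 of the 33 fallen genes. Leaving it out gave 70 called higher and 23 called lower. Without the 7 libraries of the series that held over 50% acinar counts, 2 of them controls, 50 were higher and 13 lower. With the acinar share as a covariate the counts were 64 and 19, and with only the compared groups fitted 23 and 6. Calls and counts below are edgeR's unless another tool is named.

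**Figure D1:**
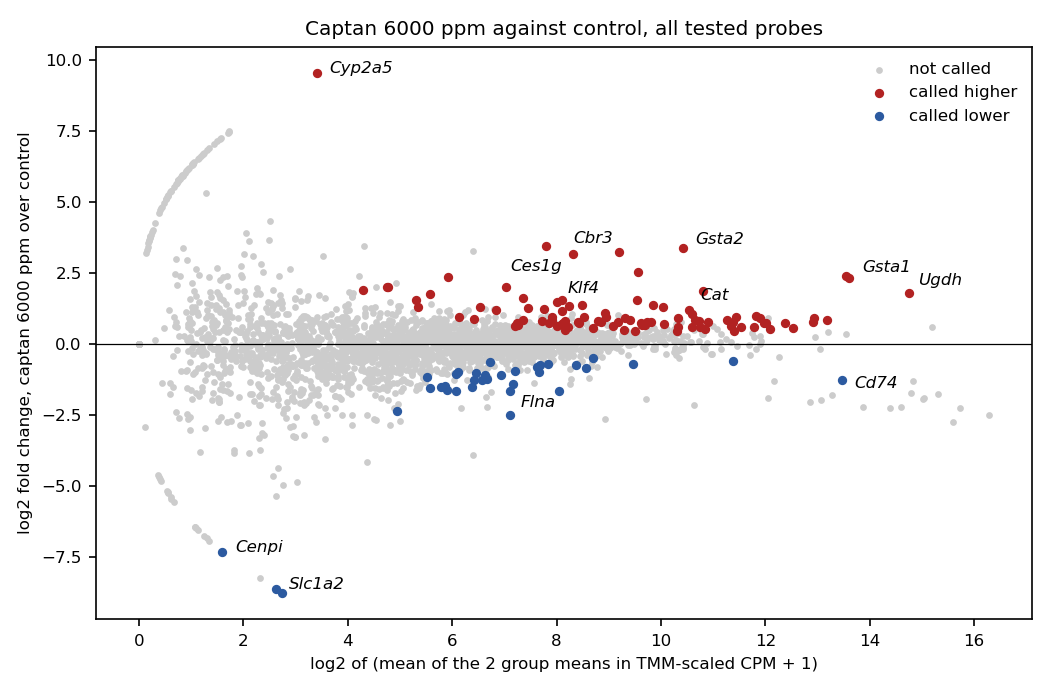
Each point is 1 of the 2541 tested probes, with the log2 of the mean of the group means in CPM, plus 1, on the horizontal axis and the log2 fold change of captan 6000 ppm over control on the vertical axis. The 96 probes called higher are red and the 35 called lower are blue. Gsta1 (2.33 log2) and Gsta2 (3.37 log2) stand far above the grey cloud at high mean levels.

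Glutathione transferases, which couple glutathione to electrophiles, included some of the largest rises. Of 11 tested transferases 4 were higher and none lower, with a median log2 fold change of 0.98, against 3.78% called higher and a median of 0.01 over all probes. The 3 alpha class genes Gsta1, Gm3776 and Gsta2 lie close together on chromosome 9, and their sequences are shown because a short probe may not separate them. Their longest coding transcripts were 99.5% identical between Gsta1 and Gm3776 and 97.2% identical between Gsta1 and Gsta2 (GENCODE M21). The 150 bases before each annotated start, from RefSeq on GRCm38.p6, are given 5′ to 3′ in the direction of the gene. They lie at chr9:78230519-78230668 (plus strand) for Gsta1, chr9:78256979-78257128 (plus strand) for Gm3776 and chr9:78347146-78347295 (minus strand) for Gsta2. Capitals mark the 20 bases of Gsta2 that differ from, or have no partner in, Gsta1 within the stretch where both align; the ends that overhang it are in lower case.
Gsta1: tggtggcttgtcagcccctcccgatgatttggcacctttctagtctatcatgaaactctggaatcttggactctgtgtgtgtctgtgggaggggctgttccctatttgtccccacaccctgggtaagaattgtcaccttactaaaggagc
Gm3776: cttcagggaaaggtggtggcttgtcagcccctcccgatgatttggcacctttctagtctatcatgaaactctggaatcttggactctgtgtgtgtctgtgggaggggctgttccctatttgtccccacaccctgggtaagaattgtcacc
Gsta2: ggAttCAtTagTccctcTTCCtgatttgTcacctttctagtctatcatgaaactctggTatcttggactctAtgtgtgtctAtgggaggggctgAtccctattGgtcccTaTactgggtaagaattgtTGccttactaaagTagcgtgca
The Gm3776 stretch matched Gsta1 at all 137 aligned bases, with the start annotated further upstream, and Gsta2 matched Gsta1 at 125 of 147 aligned positions (85.0%).

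Gsta2 had 426 to 4581 CPM (median 2457) in the 7 captan libraries, against 388, 104, 188, 243 and 277 CPM in the 5 controls. The groups did not overlap, although captan replicate 2 stood far below the other 6 captan libraries. The log2 fold change was 3.37 ± 0.51 (± standard error here and below), with edgeR adjusted p = 8.30e-05. Gsta1 had 5776 to 30449 CPM (median 18813) after captan, against 5762, 1770.0, 2947, 7507 and 2726 CPM in control. Its captan replicate 2 fell inside the control range and the other 6 lay above it. The fold change was 2.33 ± 0.38 on the log2 scale (edgeR adjusted p = 0.000159), and for Gm3776, again lowest in captan replicate 2 and highest in replicate 7, 2.40 ± 0.41 (adjusted p = 0.00027). Gstp1, the pi class transferase, was higher by 0.85 ± 0.20 log2, with 6 of 7 captan libraries above the control mean. The other 7 transferases did not pass; the alpha member Gsta3 had the largest fold change of the list at 3.46 ± 1.10, with edgeR adjusted p = 0.0569, and was called by DESeq2 and limma-voom. The 4 called transferases stayed called without control replicate 5, without the libraries over 50% acinar, and with the acinar share as a covariate.

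Enzymes that act on quinones, carbonyls, epoxides and aldehydes were higher in 6 of 13 tested genes and lower in none in edgeR, with a median of 0.94 log2. DESeq2 called 8 higher and 1 lower, the aldehyde dehydrogenase Aldh7a1, which had -1.21 ± 0.45 log2 in edgeR (adjusted p = 0.108). Cbr3, a carbonyl reductase, had 336 to 2149 CPM (median 1122) after captan, against 105, 67.2, 123, 192 and 68.5 CPM in control. Every captan library lay above every control, and the fold change was 3.25 ± 0.62 log2 (edgeR adjusted p = 0.00104). Ephx1, the microsomal epoxide hydrolase, had 221 to 1750.1 CPM (median 1354) after captan, against 249.7, 203, 159, 462 and 25.2 CPM in control. Only captan replicate 2 lay within the control range, and the fold change was 2.55 ± 0.54 log2. Nqo1, the quinone reductase often used as a readout of NRF2, had 150.5 to 707 CPM (median 344) after captan, against 173, 103, 109.6, 225 and 91.0 CPM in control. Its groups overlapped only at captan replicate 2, with a fold change of 1.54 ± 0.42 log2 and adjusted p = 0.0227. The Nqo1 call was lost without captan replicate 4 (1.37) or control replicate 2, 3 or 5 (1.47, 1.48 and 1.43). It was also lost in limma-voom (1.50), with the acinar share as a covariate (1.15) and without the libraries over 50% acinar (1.70). Aldh3a2, a fatty aldehyde dehydrogenase, was tighter, with 1785 to 2422 CPM (median 2196) after captan against 1244, 1122, 1259, 1446 and 1096 CPM in control and a fold change of 0.81 ± 0.14. A second Aldh3a2 probe gave -0.60 ± 1.80 and did not pass. The mitochondrial Aldh2 rose by 0.84 ± 0.18 and the soluble epoxide hydrolase Ephx2 by 0.77 ± 0.18 log2.

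Glutathione recycling and the supply of NADPH and sugar nucleotides also moved up. Gsr, which regenerates reduced glutathione, had 784 to 2333 CPM (median 1498) after captan, against 745, 766, 533, 377 and 640.4 CPM in control. The groups were separated by a narrow gap, between 784 CPM in captan replicate 2 and 766 CPM in control replicate 2, with a fold change of 1.29 ± 0.31 log2 (edgeR adjusted p = 0.00842). Gclm, the modifier subunit of the enzyme that starts glutathione synthesis, had 126 to 303 CPM (median 208) after captan, against 81.3, 148, 115, 88.4 and 148 CPM in control. Its groups overlapped at captan replicate 2, and the call at 0.86 ± 0.26 log2 was lost without captan replicate 3, 4 or 7 (0.85, 0.79 and 0.77) or control replicate 1, 3 or 4 (0.77, 0.87 and 0.78). The cystine importer Slc7a11 spread widely, with 15 to 521 CPM (median 83.2) after captan against 5.20, 25.3, 7.39, 16.8 and 27.0 CPM in control. It did not pass in edgeR at 3.27 ± 1.16 log2 (adjusted p = 0.0957), though DESeq2 called it (adjusted p = 0.0289). The catalytic subunit gene Gclc did not pass at 1.11 ± 0.56. In the glutathione synthesis and cystine list 2 of 7 genes were higher, and 0 with the acinar share as a covariate.

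Ugdh makes UDP-glucuronate, the sugar donor of glucuronidation. It had 13836 to 65779 CPM (median 43598) after captan, against 9061, 10079, 13274, 20869.8 and 9017 CPM in control. Only captan replicate 2 overlapped the controls, below control replicate 4, and the fold change was 1.79 ± 0.30 log2 (edgeR adjusted p = 0.000159). Me1, the cytosolic malic enzyme that yields NADPH, rose by 1.34 ± 0.26 and Taldo1, the transaldolase of the pentose phosphate pathway, by 1.06 ± 0.18 log2, so 3 of 4 genes of that list were higher. Among 16 peroxide, superoxide, thioredoxin and iron enzymes 3 were higher. Cat, the peroxisomal catalase, had 1494 to 2757 CPM (median 2113) after captan, against 1199, 1029, 774, 959 and 564 CPM in control. Its groups were well apart, with the smallest adjusted p of all named genes (8.23e-06, edgeR) at 1.20 ± 0.17 log2. The thioredoxin reductase Txnrd1 rose by 0.97 ± 0.28 log2, a call lost without captan replicate 4, 5 or 6 (0.83, 0.93 and 0.90) or control replicate 1, 2 or 5 (0.94, 0.99 and 0.75). The peroxiredoxin Prdx1 rose by 0.61 ± 0.18, a call lost without captan replicate 3, 4, 5 or 7 (0.58, 0.59, 0.59 and 0.56) or control replicate 2, 3 or 5 (0.59, 0.58 and 0.47). Sulfiredoxin Srxn1 had 1.01 ± 0.31 log2 and missed the threshold in edgeR (adjusted p = 0.0525) and passed in DESeq2 (adjusted p = 0.0142).

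The heme oxygenase Hmox1, another common NRF2 readout, was near the floor of the assay, with counts above 0 in 3 of 7 captan libraries and 1 of 5 controls. None of the 5 tested genes for NRF2 and its regulators passed in edgeR, DESeq2 or limma-voom, and 2 had an unadjusted p under 0.05, both higher. Nfe2l2, which encodes NRF2, had 184 to 297 CPM (median 226) after captan, against 164, 226, 175, 98.3 and 43.2 CPM in control, a fold change of 0.66 ± 0.31 log2 (edgeR adjusted p = 0.221). Keap1 had 0.19 ± 0.16 log2. Over the 5 enzyme lists from transferases to peroxide enzymes, 18 of 51 tested genes were higher and 0 lower in edgeR, with a median of 0.84 log2; Aldh7a1 was the 1 member that DESeq2 called lower. Captan replicate 2 was the lowest captan library for 16 of these 18 and replicate 7 the highest for 12. The count was 13 of 51 with the acinar share as a covariate or without the libraries over 50% acinar, and 16 without control replicate 5.

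**Figure D2:**
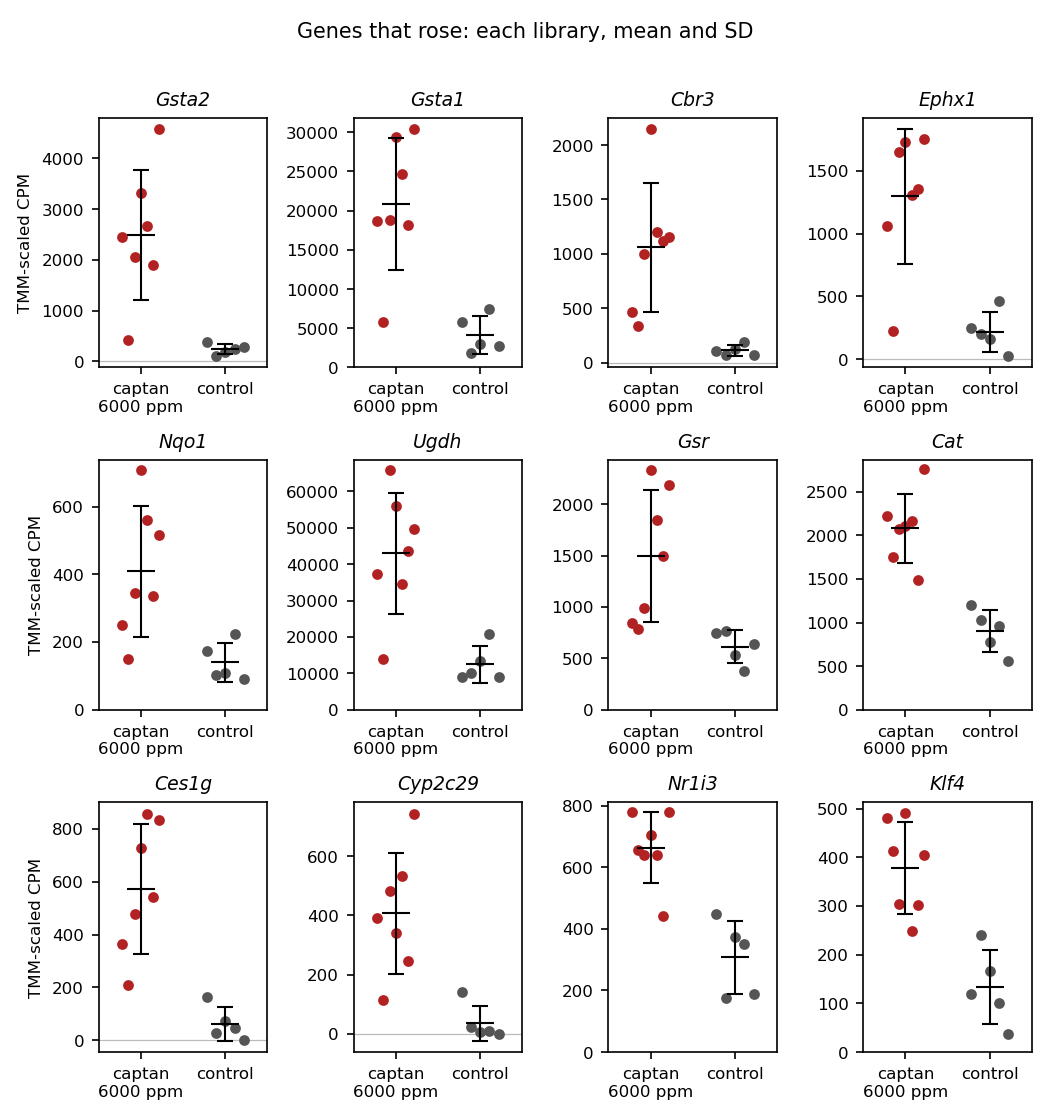
CPM in each captan 6000 ppm library (left, red) and each control library (right, grey) for 12 genes called higher, with the mean and SD of each group in black. The lowest captan point of Gsta2, 426 CPM, is replicate 2 and lies above the highest control at 388 CPM, while for Gsta1, Ephx1, Nqo1 and Ugdh that library falls among the controls.

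Several of these genes carry the core letters of an antioxidant response element in the promoter table, and the windows are shown to place them. The motif TGACNNNGC was searched on both strands from 250 bases before to 50 after each annotated start. It was found in 4071 of 32851 mouse promoters (12.4%). The shorter core of the xenobiotic response element, GCGTG, was found in 32.4%, and its matches may overlap those of the first. Only 75 of the 94 risen genes had a promoter entry, which is under 80%, so a share among them is void and is not given. The windows come from RefSeq on GRCm38.p6, run 5′ to 3′ in the direction of the gene, and have the motif or its reverse complement in capitals. They lie at chr3:122245397-122245457 (plus strand) for Gclm, chr9:86695886-86695946 (minus strand) for Me1, chr4:116685440-116685500 (plus strand) for Prdx1 and chr10:82859088-82859148 (plus strand) for Txnrd1. Ugdh holds 2 copies, at chr5:65435902-65435962 (minus strand) and chr5:65435940-65436000 (minus strand).
Gclm: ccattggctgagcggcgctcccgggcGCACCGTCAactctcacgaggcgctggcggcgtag
Me1: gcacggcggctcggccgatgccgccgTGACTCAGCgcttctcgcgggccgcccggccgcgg
Prdx1: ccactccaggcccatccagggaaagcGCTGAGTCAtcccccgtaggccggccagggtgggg
Txnrd1: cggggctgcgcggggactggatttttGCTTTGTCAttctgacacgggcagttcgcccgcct
Ugdh, nearer the start: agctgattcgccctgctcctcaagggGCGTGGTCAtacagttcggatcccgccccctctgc
Ugdh, farther from the start: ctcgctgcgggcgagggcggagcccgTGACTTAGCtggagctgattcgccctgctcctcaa
The first base of the motif lies at position -6 from the annotated start in Me1, -92 in Txnrd1, -133 in Prdx1 and -134 in Gclm. In Ugdh the copies lie at -94 and -132. These are matches of letters in a fixed window and were not tested as binding sites. Windows are shown only where the motif was found, and none is given for Gsta1, Gsta2, Cbr3, Nqo1 or Cat. They cannot tell whether the motif is more common among the risen genes. Of the risen genes in other lists, Abcb1a and Aldoa also held the motif, and their windows are not shown.

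Drug-metabolising genes rose alongside. Nr1i3, which encodes CAR, had 443 to 781 CPM (median 656) after captan, against 447, 175, 375, 349 and 189 CPM in control. The groups met only where captan replicate 6, at 443 CPM, fell just under control replicate 1, at 447 CPM. The fold change was 1.11 ± 0.17 log2 (edgeR adjusted p = 4.33e-05), a second Nr1i3 probe gave 1.19 ± 0.23 and passed as well, and no other of the 10 tested receptors and partners was called. Cyp2c29, a CAR-responsive P450 in mouse liver, had 115 to 744 CPM (median 392) after captan, against 140.1, 21.9, 5.64, 10.4 and 0 CPM in control. Its overlap came from control replicate 1, the only control above captan replicate 2. The fold change of 3.46 ± 0.97 log2 had adjusted p = 0.0277, and the call was lost without control replicate 2, 3, 4 or 5 (3.34, 3.20, 3.23 and 3.19). Without control replicate 1 the fold change was 5.32 and stayed called. The Cyp2c29 call was also lost in limma-voom (4.79), with library totals as the scale (3.67) and with only the compared groups fitted (3.47). It was lost as well with the acinar share as a covariate (3.06) and without the libraries over 50% acinar (2.88). Cyp2b10, the classic CAR target, had 2542 to 8094 CPM (median 5418) after captan, against 3641, 2669, 3256, 4150.4 and 904 CPM in control, and did not pass in edgeR at 0.92 ± 0.35 log2 (adjusted p = 0.117), while DESeq2 called it (adjusted p = 0.0382). Cyp2a5, a coumarin hydroxylase, was listed at 0 in all 5 controls and had 0 to 38.8 CPM (median 13.0) after captan, with 6 of 7 libraries above 0. No fold is given against a group listed at 0. Por, which passes electrons to all microsomal P450s, rose by 0.83 ± 0.19 log2, with captan replicate 3 alone inside the control range. In all, 3 of 21 tested genes of the P450 list were higher and none lower in edgeR. DESeq2 called 5 higher and 1 lower, Cyp3a41a, which had -1.22 ± 0.50 log2 in edgeR (adjusted p = 0.162). The pregnane and dioxin receptor targets Cyp3a11 (0.11 ± 0.38) and Cyp1a1 (0.26 ± 1.63) did not pass.

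Ces1g, a carboxylesterase, had 208 to 858 CPM (median 544) after captan, against 165, 26.4, 72.5, 45.8 and 0 CPM in control. Every captan library exceeded every control, with a fold change of 3.17 ± 0.70 log2 (edgeR adjusted p = 0.00407). The Ces1g call was lost in limma-voom (3.56), with only the compared groups fitted (3.18) and without the libraries over 50% acinar (2.73). Fmo5, a flavin monooxygenase, was also apart, at 702 to 1066 CPM (median 891) after captan and 495, 509, 534, 638 and 222 CPM in control. Its fold change was 0.85 ± 0.16 log2. With Ces2b (0.63 ± 0.18) and the monoamine oxidase Maoa (0.86 ± 0.22), 4 of 12 genes of that list were higher. The Ces2b call was lost without captan replicate 4 or 7 (0.60 and 0.56) or control replicate 5 (0.52) and the Maoa call without control replicate 5 (0.67). In the conjugation list 3 of 16 were higher, among them the sulfotransferase Sult1b1 (0.78 ± 0.18) and the glucuronosyltransferase Ugt1a6a (0.77 ± 0.23). The last was lost without captan replicate 4 or 7 (0.73 and 0.66) or control replicate 1, 2 or 5 (0.74, 0.71 and 0.83). Ugt1a members share most of their exons, so that probe may read several of them.

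Transporters of conjugates and drugs were higher in 4 of 11 tested genes. Abcc3, a basolateral exporter of glucuronides, had 157 to 279 CPM (median 251) after captan, against 122, 97.6, 128, 129.9 and 37.8 CPM in control. The groups did not overlap and the fold change was 1.25 ± 0.26 log2 (edgeR adjusted p = 0.00196). The exporters Slc47a1 (1.29 ± 0.29), Abcc5 (1.23 ± 0.28) and Abcb1a (0.93 ± 0.24), which encodes a P-glycoprotein, rose with overlap between the groups, and a second Abcc5 probe gave 0.65 ± 0.50 and did not pass. Abcb1a was lost without control replicate 5 (0.74). Across the 4 lists of P450s, esterases, conjugation and transport, 14 of 60 tested genes were higher and 0 lower in edgeR, with a median of 0.61 log2, and Cyp3a41a was the 1 that DESeq2 called lower. The call count among the 60 was 4 when libraries with over 50% acinar counts were left out, and with the acinar share as a covariate 9.

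Genes of lipid and sugar use and of the villus surface were a further group. Of 26 genes of fatty acid oxidation and related lipid handling 5 were higher, with a median of 0.42 log2. Creb3l3, a transcription factor of lipid handling in gut and liver, had 2315 to 4552 CPM (median 3469.9) after captan, against 2408, 2215, 1819, 1947 and 982 CPM in control. Only captan replicate 6 lay below the highest control, and the fold change was 0.96 ± 0.17 (edgeR adjusted p = 0.000159). The lysosomal lipase Lipa (0.94 ± 0.24) was also called. So were Eci1 (0.74 ± 0.21) and Acaa1a (0.54 ± 0.15), of beta-oxidation, both lost without control replicate 5 (0.51 and 0.42). In glycolysis 2 of 16 rose, the aldolase Aldoa by 0.81 ± 0.20 and the triose phosphate isomerase Tpi1 by 0.73 ± 0.16 log2. Among 14 hypoxia targets Bnip3 (1.55 ± 0.41) and Car9 (0.82 ± 0.24) rose, the second not without captan replicate 4 or 7 (0.77 and 0.76) or control replicate 2, 3 or 5 (0.80, 0.80 and 0.70). Bnip3 was not called in limma-voom (adjusted p = 0.0927) or with only the compared groups fitted (adjusted p = 0.325).

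Klf4, a transcription factor of differentiated villus cells, had 248 to 491 CPM (median 405) after captan, against 119, 240.2, 167, 100.3 and 37.8 CPM in control. The groups lay apart, with a fold change of 1.50 ± 0.25 log2 (edgeR adjusted p = 0.000117). With Creb3l3 and the apolipoproteins Apoa1 (0.91 ± 0.23) and Apoc3 (0.97 ± 0.27), 4 of 9 villus enterocyte genes were higher, with a median of 0.61 log2. Apoc3 was lost without captan replicate 3 (0.92) or control replicate 4 or 5 (0.91 and 0.72). Acinar genes ran the other way: all 17 had negative fold changes, with a median of -2.13, though none was called and none had an unadjusted p under 0.05. All 7 smooth muscle genes had negative fold changes as well, with a median of -0.68 and summed levels of 1302 to 2178 CPM after captan and 2032 to 3554 CPM in control. In whole sections, fewer cells of a type and less RNA per cell cannot be told apart, and the part of section make-up in the villus genes was not tested. The villus count was 3 of 9 with the acinar share as a covariate and 2 of 9 without the libraries over 50% acinar.

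Dbp, a clock output gene whose level swings over the day, had 682 to 1759 CPM (median 1110.3) after captan, against 239.5, 391, 505, 618 and 149.5 CPM in control. It was apart in every library, at 1.55 ± 0.31 log2 (edgeR adjusted p = 0.00157), the only one of 6 tested circadian genes to pass in edgeR. DESeq2 also called Nfil3, a repressor in the clock circuit, lower, with -2.84 ± 1.13 log2 and adjusted p = 0.135 in edgeR. The times at which the mice were killed are not given in the labels. Other large rises were at low levels. The actin-capping gene Capg (2.35 ± 0.56) reached at most 219 CPM in the captan group, the orphan receptor Gpr17 (2.02 ± 0.51) 78.6 CPM and the small GTPase Rab31 (1.89 ± 0.51) 42.9 CPM. Tubulin Tubb2a (2.02 ± 0.56), the sulfatase Arsa (2.0 ± 0.59) and the iron importer Slc11a2 (1.86 ± 0.54) were each lost on leaving out single libraries. These were captan replicate 4 (1.80) or control replicate 4 (1.81) for Tubb2a, captan replicate 6 or 7 (1.93 and 1.91) or control replicate 4 or 5 (1.89 and 1.72) for Arsa and captan replicate 4 or 7 (1.60 and 1.73) or control replicate 1, 2 or 5 (1.84, 1.66 and 2.01) for Slc11a2.

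Of the 94 risen genes 47 were in none of the lists, and a few are named here after their values were seen. Pgrmc1, a heme-binding partner of P450 enzymes, had 793 to 1868 CPM (median 1288) after captan, against 630.0, 453, 509, 599 and 383 CPM in control. The lowest captan library lay above the highest control, and the fold change was 1.36 ± 0.21 (edgeR adjusted p = 4.33e-05). The probe UGT2B15, a symbol without a match in the mouse gene table, had 1.36 ± 0.28 log2, with 367 to 637 CPM after captan and 128 to 312 CPM in control. Bpnt1, a phosphatase that clears a by-product of sulfation, rose by 0.74 ± 0.15 and Slc6a8, the creatine transporter, by 0.93 ± 0.20 log2. Cda, a cytidine deaminase, rose by 0.77 ± 0.15, the MAP kinase Mapk3 by 0.63 ± 0.14 and the keratin Krt8 of simple epithelia by 0.54 ± 0.14. Bpnt1, Slc6a8 and Cda had groups that did not overlap. Those of Slc6a8 all but touched, with 4049.8 CPM in the lowest captan library and 4049.2 CPM in the highest control.

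**Figure D3:**
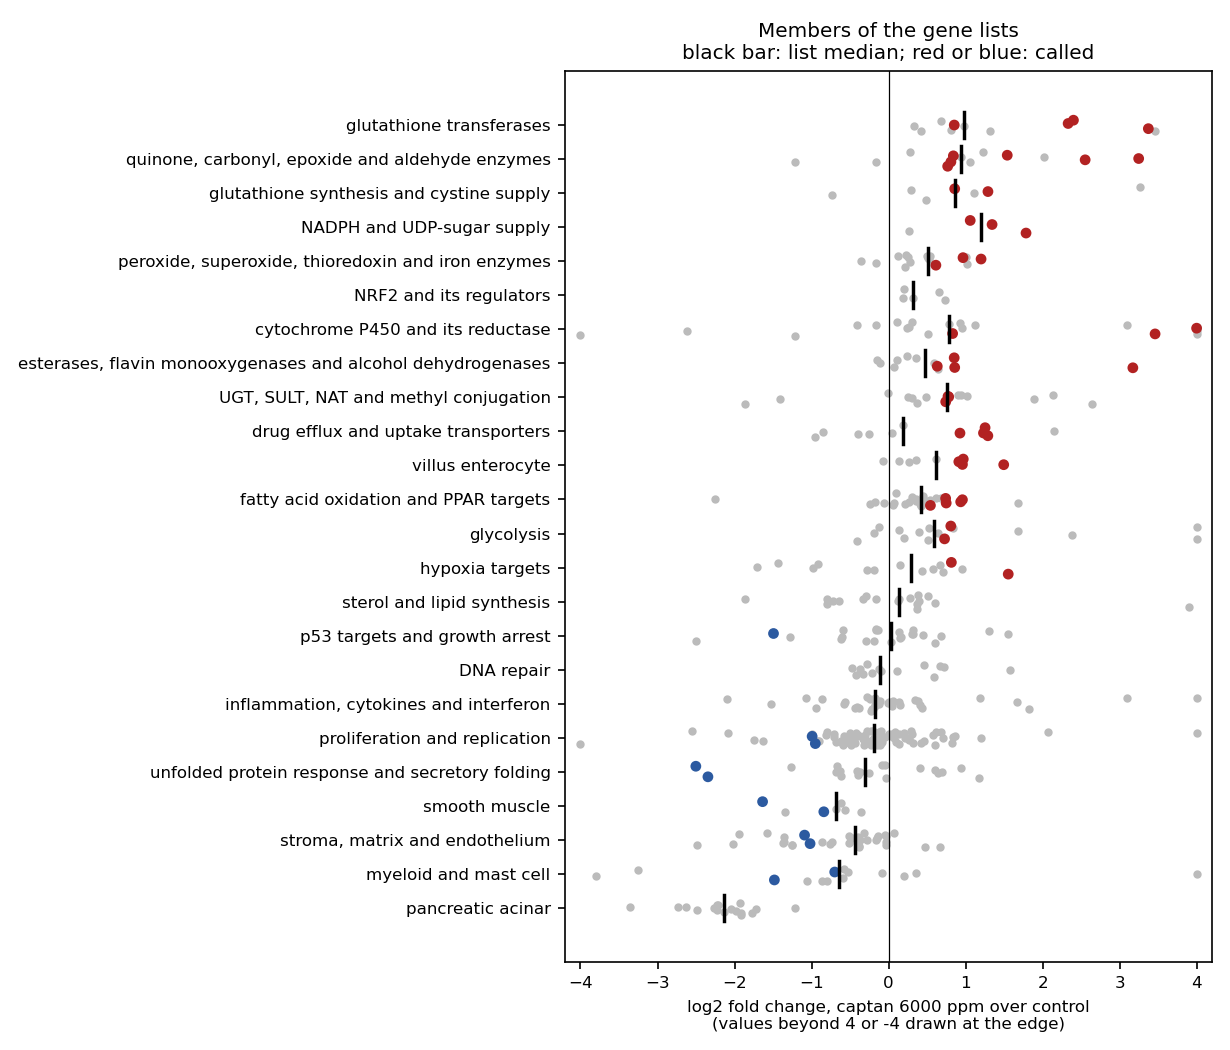
Log2 fold changes of captan 6000 ppm over control for the tested genes of 24 lists, 1 line per list and 1 point per gene. Red points were called higher, blue points called lower and grey points not called, a black bar marks each list's median, and values beyond 4 or -4 are drawn at the edge. The medians of the glutathione transferase, quinone and NADPH lists lie to the right of 0, and all points of the acinar and smooth muscle lists lie to its left.

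The 33 genes that fell included a few contractile and matrix genes and the antigen presentation gene Cd74. Of the 33, 21 were in none of the lists. Flna, an actin-crosslinking filamin abundant in smooth muscle, had 35.7 to 137 CPM (median 54.8) after captan, against 131, 239, 184, 104 and 382 CPM in control. Only captan replicate 2 reached the control range, and the fold change was -1.64 ± 0.30 log2 (edgeR adjusted p = 0.000338). Acta2, the smooth muscle actin, had 168 to 452 CPM (median 249) after captan, against 234, 384, 718, 635 and 462 CPM in control, with overlap and a fold change of -0.84 ± 0.21. Its call was lost without control replicate 3 (-0.64). These were the 2 called of 7 smooth muscle genes. In the stroma and matrix list 2 of 34 fell, against 1.38% called lower over all probes. They were the type VI collagen chain Col6a3 at -1.09 ± 0.26 and the microfibril gene Fbn1 at -1.02 ± 0.29. Negative fold changes were found for 31 of the 34. The summed level of the stroma list was 2582 to 3465 CPM after captan and 3316 to 5329.9 CPM in control. Fbn1 was lost without control replicate 3 or 4 (-0.90 and -0.88). Without the libraries over 50% acinar 1 smooth muscle gene and 0 stroma genes were called lower.

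Cd74 encodes the chain that guides MHC class II molecules through the cell, and had 4616 to 12158 CPM (median 6244) after captan, against 12868, 25588, 13843, 19248 and 8371 CPM in control. Captan replicate 4, at 12158 CPM, overlapped the controls and the other 6 lay below all 5, with a fold change of -1.25 ± 0.29 (edgeR adjusted p = 0.00536). It was the only one of 5 tested genes of the class II and antigen presentation list called in edgeR. H2-Aa, a class II alpha chain, had -1.19 ± 0.41 log2 (edgeR adjusted p = 0.0822) and was called lower by DESeq2 and limma-voom. H2-DMa, Cd83 and Cd86 ran the other way near the floor, with means of 0.86, 0.34 and 2.42 CPM after captan. None of those was called in edgeR, DESeq2 or limma-voom. Of 14 myeloid genes the Fc receptor Fcgr3 (-1.48 ± 0.45) and the complement gene C1qb (-0.70 ± 0.19) fell, and 11 had negative fold changes. Fcgr3 was lost without captan replicate 1, 2, 3, 4 or 7 (-1.44, -1.45, -1.40, -1.39 and -1.49) or control replicate 1, 3 or 5 (-1.13, -1.42 and -1.47), and C1qb without control replicate 1 or 2 (-0.59 and -0.61). No T cell or B cell gene was called in edgeR, DESeq2 or limma-voom, or had an unadjusted p under 0.05. The interferon-induced Ifitm3 (-1.27 ± 0.37) and Ifitm2 (-1.42 ± 0.37) and the interleukin receptor Il1r1 (-1.26 ± 0.31) fell too. Ifitm3 was lost without captan replicate 3, 4 or 5 (-1.18, -1.28 and -1.22) or control replicate 1 or 5 (-0.92 and -1.15), Ifitm2 without control replicate 5 (-0.97) and Il1r1 without control replicate 5 (-0.81).

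Several large falls lost their call without control replicate 5, the library with the highest acinar share and the fewest probes above 0. Glul, the glutamine synthetase, had 63.6 to 233 CPM (median 117) after captan, against 219, 166, 192, 197 and 1234 CPM in control. Its call at -1.66 ± 0.44 log2 was lost without captan replicate 4 (-1.53) or control replicate 5 (-0.62). Nucb2 (-2.35 ± 0.63) and ERO1LB (-2.50 ± 0.68), a disulfide-forming oxidase of secretory cells, were the 2 of 20 secretory folding genes called, both lower. Nucb2 was lost without control replicate 5 (-1.54) and ERO1LB without captan replicate 7 (-2.37) or control replicate 5 (-1.31). Gadd45g, a stress and growth arrest gene, was the 1 of 23 p53 and growth arrest genes called, at -1.51 ± 0.38, and was lost without control replicate 5 (-1.03). The acetyltransferase Kat2a (-1.64 ± 0.43) was lost without control replicate 5 (-1.19). GM6453 (-1.60 ± 0.41) was lost without control replicate 5 (-0.43), and Pwp1 (-1.53 ± 0.46) without captan replicate 1, 2, 4, 6 or 7 (-1.54, -1.43, -1.44, -1.54 and -1.49) or control replicate 5 (-0.68). The unmatched C730049O14RIK (-1.52 ± 0.46) was lost without captan replicate 1, 3, 4, 5 or 6 (-1.43, -1.40, -1.44, -1.46 and -1.39) or control replicate 1, 2 or 5 (-1.33, -1.50 and -1.19). Slc1a2 and Cenpi were listed at 0 in all 7 captan libraries. Among the controls Slc1a2 had 3.08 CPM in replicate 1 and 48.6 CPM in replicate 5, and Cenpi 20.3 CPM in replicate 2 alone. In 14 of the 22 falls named by rule the call was lost without control replicate 5, against 15 of 53 rises.

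Among the lower genes whose groups did not overlap, Golt1b, Ythdf1 and Cnn3 are named after their values were seen. Golt1b, a Golgi transport gene, had 34.1 to 93.8 CPM (median 52.2) after captan, against 117, 145, 109.6, 120.0 and 213 CPM in control (-1.23 ± 0.26 log2). Ythdf1, a reader of methylated adenosine in RNA, had 128 to 187 CPM (median 148) after captan, against 249, 257, 272, 264 and 244 CPM in control (-0.74 ± 0.16 log2, edgeR adjusted p = 0.0021). Cnn3, a calponin, had -0.49 ± 0.13 log2, with a narrow gap between 411.7 CPM in the highest captan library and 413.7 CPM in the lowest control.

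**Figure D4:**
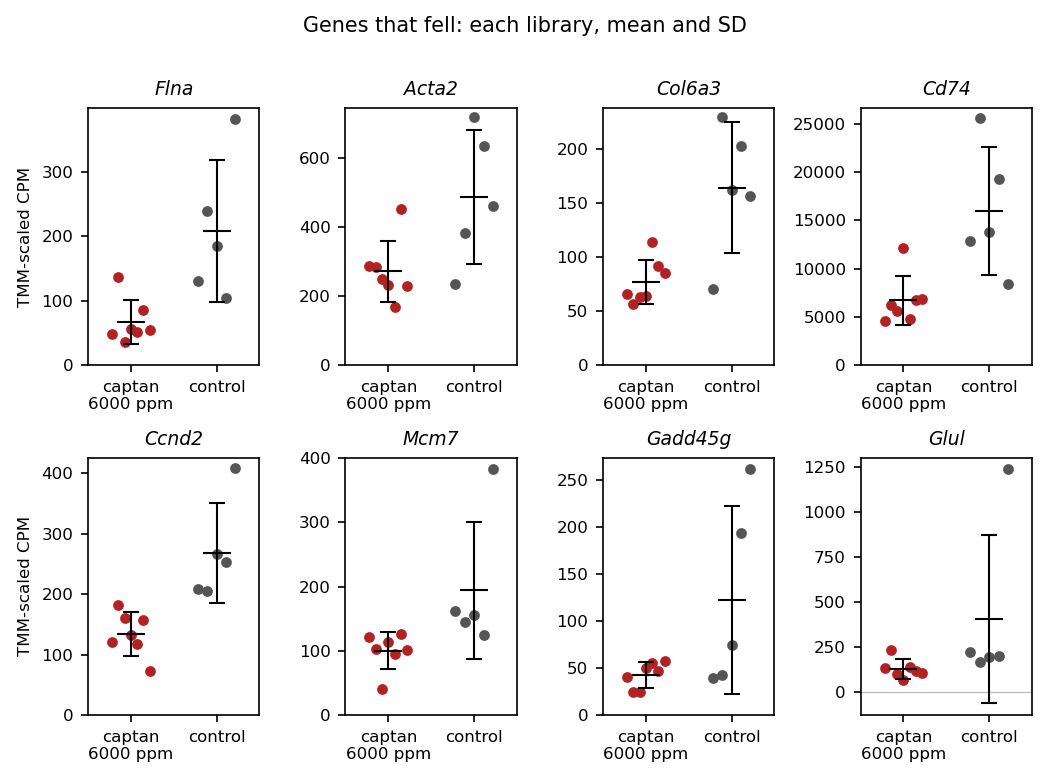
CPM in each captan 6000 ppm library (left, red) and each control library (right, grey) for 8 genes called lower, with the mean and SD of each group in black. The single control point of Glul at 1234 CPM is replicate 5, while the 5 controls of Ccnd2, from 205 to 409 CPM, all lie above the 7 captan libraries.

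Few genes of proliferation and replication passed the test. Of 82 tested, 0 were higher and 2 lower in edgeR, with a median of -0.19 log2, and 7 had an unadjusted p under 0.05. Over all probes 3.78% were called higher, 1.38% lower and 19.6% had an unadjusted p under 0.05. Among the 82 genes DESeq2 called 1 higher and 3 lower, and limma-voom 1 higher and 1 lower. Ccnd2, a D-type cyclin, had 72.0 to 183 CPM (median 132) after captan, against 209, 205, 266, 253 and 409 CPM in control, with no overlap and a fold change of -0.99 ± 0.23 (edgeR adjusted p = 0.00407). The Ccnd2 call was lost without the libraries over 50% acinar (-0.74) and with library totals as the scale (-0.59). A second Ccnd2 probe gave -0.90 ± 0.44 and did not pass. Mcm7, a subunit of the replicative helicase, had 40.3 to 126 CPM (median 103) after captan, against 161, 145, 156, 125 and 384 CPM in control. It was called at -0.95 ± 0.27 and lost without captan replicate 3 (-0.81) or control replicate 5 (-0.55). The median of the list was 0.14 when libraries were scaled by total counts alone, a scaling that moved the median of all probes to 0.33. The cycling marker Mki67 had 14.0 to 40.5 CPM (median 25.6) after captan, against 26.8, 51.7, 59.3, 24.9 and 0 CPM in control, and did not pass at -0.39 ± 0.56. Ccnd1 had -0.50 ± 0.32 log2 (edgeR adjusted p = 0.426). None of 4 crypt stem and progenitor genes was called in edgeR, DESeq2 or limma-voom, and 0 had an unadjusted p under 0.05.

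The lists of DNA damage, protein stress and inflammation genes gave no call in edgeR beyond those above. Tnip1 (0.96 ± 0.26) and Nfkbib (0.64 ± 0.15), which are in none of these lists, were called higher. The p53 targets Cdkn1a (0.30 ± 0.18) and Mdm2 (-0.16 ± 0.28) did not pass. Sesn2, a stress-induced sestrin of the p53 list, was called higher in limma-voom alone (3.44 log2) and had 1.31 ± 1.03 log2 in edgeR (adjusted p = 0.56). In addition, 0 of 14 DNA repair genes was called in edgeR, DESeq2 or limma-voom, with 1 at an unadjusted p under 0.05. Of 22 heat shock and proteasome genes 0 passed in edgeR, while DESeq2 called 3 lower and limma-voom 1 lower. An unadjusted p under 0.05 was found for 7 of the 22, against 19.6% of all probes. Hspa1b, the inducible heat shock chaperone, had 4.05 to 572 CPM (median 24.4) after captan, against 181, 168, 49.8, 62.6 and 255 CPM in control, a wide overlap in which captan replicate 4 was the highest library. The stress factors Ddit3 (0.94 ± 0.42) and Atf3 (-0.05 ± 0.77) did not pass, and the immediate early gene Fos had 0.71 ± 0.23 log2 with edgeR adjusted p = 0.0588. Of 35 genes of cytokines, chemokines and interferon 0 was called in edgeR, with 3 at an unadjusted p under 0.05, and limma-voom called 1 lower. Tnf was above 0 in 5 of 7 captan libraries and 5 of 5 controls, and Il1b in 3 of 7 captan libraries and 0 of 5 controls. Vegfa (-0.28 ± 0.26) and the receptors Ahr (0.77 ± 0.34) and Nr1i2 (0.34 ± 0.19) did not pass. A missed threshold here does not show that the level was the same.

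The higher dose, 12000 ppm, was set against the lower to see which genes differed between the doses. No probe was called in this contrast (0% of 2541, edgeR quasi-likelihood test), and 148 (5.82%) had an unadjusted p under 0.05. Neither of its means uses a control library, though the scatter was fitted over all 40 libraries. DESeq2 and limma-voom also called 0. Gsta2 averaged 240.1 ± 105 CPM in control, 2488 ± 1283 at 6000 ppm and 3061 ± 1975 at 12000 ppm (mean ± SD, n = 5, 7 and 7). The difference of 6000 from 12000 ppm was -0.30 ± 0.40 log2 (95% interval -1.12 to 0.52). Cat averaged 905 ± 244 CPM in control, 2081 ± 395 at 6000 ppm and 1915 ± 407 at 12000 ppm, with a difference of 0.12 ± 0.15 log2 (95% interval -0.18 to 0.42). Cyp2c29 averaged 35.6 ± 59.0 CPM in control, 408 ± 205 at 6000 ppm and 1236 ± 1156 at 12000 ppm, with a difference of -1.60 ± 0.78 log2 (95% interval -3.18 to -0.01). Cbr3 averaged 111 ± 51.2 CPM in control, 1061 ± 592 at 6000 ppm and 2354 ± 1730.3 at 12000 ppm, with a difference of -1.15 ± 0.50 log2 (95% interval -2.17 to -0.13). For Slc7a11 the means were 16.3 ± 9.99 CPM in control, 149.8 ± 185 at 6000 ppm and 378 ± 422 at 12000 ppm, a difference of -1.33 ± 0.91 log2 (95% interval -3.18 to 0.52). In all 4 of Gsta2, Cyp2c29, Cbr3 and Slc7a11 the lowest libraries at 12000 ppm were replicates 1 and 2. They had 737 and 598 CPM of Gsta2, 64.7 and 69.9 CPM of Cyp2c29, 293 and 154 CPM of Cbr3 and 7.27 and 7.23 CPM of Slc7a11. The other 5 libraries at 12000 ppm had 1259 to 4084 CPM of Cbr3. Both intervals for Cyp2c29 and Cbr3 leave out 0, but neither gene passed the adjustment over all probes.

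Leaving out single libraries added 1 call at most. Hspa1b was lower at 6000 than at 12000 ppm without captan 6000 ppm replicate 4 (-3.60 log2), the library that held its highest lower-dose value. Fkbp5 was higher without captan 12000 ppm replicate 2 (1.51) and Klhl24 without captan 12000 ppm replicate 6 (0.78). Intervals are approximate, from the standard error and the t distribution with 34 degrees of freedom.

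Folpet shares the trichloromethylthio group of captan but carries it on an aromatic phthalimide, where captan has a partly saturated ring. At the same 6000 ppm in the diet, for the same 28 days, 4 probes were called between the compounds (0.157%), all lower after captan, and 130 (5.12%) had an unadjusted p under 0.05. This is 1 pair of groups, and p-values are adjusted over its 2541 probes. Ddit4, an mTOR inhibitor induced by glucocorticoids and stress, had 4.42 to 43.6 CPM (median 30.5) after captan and 44.6 to 186 CPM (median 133) after folpet. Tsc22d3, the glucocorticoid-induced leucine zipper, had 717 to 1500.0 CPM (median 1046) after captan and 1989 to 2525 CPM (median 2326) after folpet. For both genes every captan library lay below every folpet library, narrowly so for Ddit4. Their differences of captan from folpet were -2.22 ± 0.43 log2 (edgeR adjusted p = 0.00811) and -1.11 ± 0.17 log2 (adjusted p = 4.84e-05). Btg2, an antiproliferative gene, had a difference of -0.99 ± 0.20 and Nfkbia, the NF-kappa-B inhibitor, -0.64 ± 0.14 log2. Nfkbia was lost without captan replicate 1 (-0.60) or 2 (-0.58) or folpet replicate 3 (-0.55). With library totals as the scale only Ddit4 passed, and DESeq2 gave Ddit4 no adjusted p. None of the 4 was called against control: Ddit4 had -0.98 ± 0.46, Tsc22d3 0.16 ± 0.18, Btg2 -0.19 ± 0.22 and Nfkbia -0.25 ± 0.15 log2.

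For the detoxifying enzymes no difference between the compounds was called in edgeR. Gsta2 averaged 2488 ± 1283 CPM after captan and 2929 ± 902 CPM after folpet, a difference of -0.24 ± 0.40 log2 (95% interval -1.06 to 0.59). Cbr3 averaged 1061 ± 592 CPM after captan and 889 ± 671 CPM after folpet (0.26 ± 0.50 log2, interval -0.75 to 1.26). Cat had a difference of -0.06 ± 0.15 (interval -0.36 to 0.24). Cyp2c29 averaged 408 ± 205 CPM after captan and 91.4 ± 63.4 CPM after folpet, 2.16 ± 0.80 log2 with an interval of 0.54 to 3.78. That interval leaves out 0, yet the edgeR adjusted p over all probes was 0.454. Por ran the other way at -0.58 ± 0.17 (interval -0.92 to -0.24) and was not called in edgeR, but DESeq2 called it lower after captan than after folpet (-0.59, adjusted p = 0.0389).

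**Figure D5:**
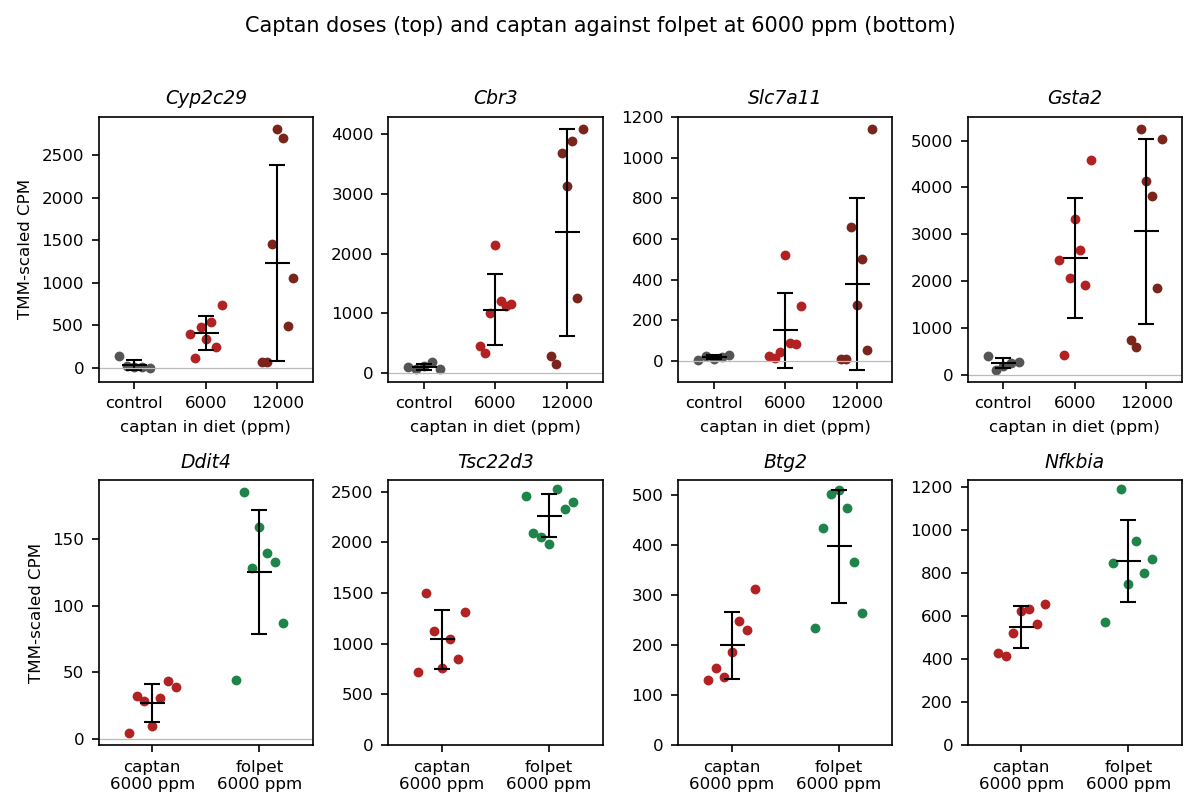
CPM in each library, with the mean and SD of each group in black. The upper panels show Cyp2c29, Cbr3, Slc7a11 and Gsta2 in control, captan 6000 ppm and captan 12000 ppm, and the lower panels show Ddit4, Tsc22d3, Btg2 and Nfkbia for captan 6000 ppm beside folpet 6000 ppm. No gene of the upper panels was called between the captan doses, and all 4 of the lower panels were called lower after captan.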

How the data were processed

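Counts of reads per probe from TempO-Seq libraries were deposited by the authors as whole numbers; neither header nor values show a normalization. Per the submitters' processing notes, bcl2fastq 2.17.1.14, Bowtie (no version) and build mm9 belong to the processing, with no step named for any of them. Columns were matched to samples by the title in the labels, and groups taken from the labelled exposure. The table has 3045 probes for 2756 symbols, 289 with 2 probes, and 155 symbols had no match in the RefSeq gene table. Of all values 28.5% were 0, while 1.01% of those above 0 lay from 1 to 5, so a 0 in 1 library says little about a low transcript, and counting error is only part of the error at low counts. Probe sequences were not used here, and probes of near-identical genes may read each other's transcripts.

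Counts were tested in R 4.3.3 with edgeR 4.0.16: filterByExpr (minimum count 10, minimum total 15), TMM, and a robust quasi-likelihood fit with 1 mean per group over all 40 libraries and 34 residual degrees of freedom. Tests are 2-sided, with Benjamini-Hochberg adjustment over 2541 probes and a threshold of 0.05. A standard error is the log2 fold change over the root of its F statistic. The code was tested on simulated data. Of 2 probes for a gene, the one with the larger total is reported. Alternatives were DESeq2 1.42.0, limma-voom (limma 3.58.1), other scalings and filters, fewer libraries, the logit of the acinar share as a covariate and each library left out; the closing section gives their effect. The members, lists and comparisons were chosen with earlier results of these data known. Genes named by rule were the 15 largest called rises and 15 largest falls, up to 5 called members of each list by adjusted p, fixed pathway genes whether called or not, and the called probes of the dose and folpet comparisons. Of the fixed genes 4 (Gsta4, Gstm1, Pcna and Lgr5) had no tested probe and are not analysed here. A few genes that the rule names are not reported here, though they stay in the counts.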

Additional observations from a re-analysis of the deposited data

Results flagged for a closer look

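Within each group, the highest and lowest library of the fixed pathway genes and largest changes, and of 3 library measures, was compared with the others on the log2(CPM + 1) scale by Dixon's ratio. Of 132 groups of values 22 had a library that stood apart, and chance alone gives about 1 in 20.

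Captan replicate 2, the shallowest library, stood low for 6 genes. It had 426 CPM of Gsta2, 5776 CPM of Gsta1, 5113 CPM of Gm3776, 221 CPM of Ephx1, 13836 CPM of Ugdh and 5.31 CPM of the P450 Cyp2c55. It stood high for Cyp3a11, at 1149.9 CPM. Single captan libraries also stood low for Nr1i3 (replicate 6, 443 CPM), Por (replicate 3, 152 CPM) and Atf3 (replicate 5, 0 CPM). Replicate 4 stood high for Cd74, at 12158 CPM.

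Control replicate 5 stood low for Gpr17, Rab31, Ddit3 and Mki67, each at 0 CPM, and for Cyp2b10 at 904 CPM. It stood high for Pwp1 at 195 CPM and Glul at 1234 CPM. Among the other controls, replicate 1 was low for Ccnd1 at 46.6 CPM, and replicate 2 was low for Capg at 0 CPM and the sole library with Cenpi, at 20.3 CPM. Replicate 3 was the sole control with Hmox1, at 6.80 CPM.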

How the results depend on the processing

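Against control, 96 probes were called higher and 35 lower. The split was 85 and 54 with DESeq2 size factors, 123 and 90 with DESeq2, 32 and 0 with library totals (median of all probes 0.33 log2), 23 and 6 with only the compared groups fitted, and 64 and 19 with the acinar share as a covariate. It was 50 and 13 without libraries over 50% acinar, 85 and 21 without captan replicate 2 and control replicate 5 (chosen after seeing the data), and 152 and 71 at adjusted p 0.1. With single libraries left out 70 to 119 were higher and 23 to 42 lower. Of 131 called probes 55 stayed called without the libraries over 50% acinar and 28 with only the compared groups fitted.

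Of 75 called named genes 40 stayed called without each library in turn. Under every alternative 12 stayed called: Gsta2, Cbr3, Gm3776, Gsta1, Ugdh, Dbp, Klf4, Abcc3, Cat, Nr1i3, Taldo1 and Aldh3a2. Between the captan doses, leaving out single libraries gave 0 to 1 calls in each direction. Against folpet, 2 probes were higher and 11 lower with DESeq2 and with limma-voom, and 2 and 8 with only the compared groups fitted or without libraries over 50% acinar (the last chosen after seeing the data). Library totals left 1 lower, and single libraries left out gave 3 to 6 lower. Aqp3 was higher in several of these, at 1.02 with DESeq2.

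Signs turned only for named genes that were not called. They were Mdm2 (0.35 library totals, 0.40 limma-voom, 0.48 both libraries out, 0.33 without libraries over 50% acinar) and Vegfa (0.28, 0.15, 0.15 and 0.40 in the same order). With library totals they were also Atf3 (0.23), Btg2 (0.14), Nfkbia (0.085), Hspa1b (0.25) and Tnf (0.022). With both libraries out they were Hspa1b (0.20), Tnf (0.086) and Cyp3a11 (-0.27). Without libraries over 50% acinar they were Cyp3a11 (-0.059), Hmox1 (-0.40) and Ddit4 (0.13). Cyp1a1 had -0.41 with limma-voom, and Hmox1 -0.25 with the covariate. With single libraries left out Cyp1a1 ran from -0.52 to 1.50, Hmox1 from -0.49 to 6.00, Cyp3a11 from -0.34 to 0.60, Atf3 from -0.39 to 0.43, Mdm2 from -0.35 to 0.42, Vegfa from -0.45 to 0.18, Hspa1b from -1.77 to 0.024 and Tnf from -0.63 to 0.12. The cause was not tested. No paired analysis was possible because the labels give no replicate numbers and those used here follow accession order.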
